A study of Mus musculus with 12 samples.

Results

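The genes described here are 9 genes of superoxide production and removal in the mouse aorta, chosen by symbol: the NADPH oxidase catalytic subunits Nox1, Nox4 and Cybb, the phagocyte oxidase partners Cyba, Ncf1, Ncf4 and Rac2, and the superoxide dismutases Sod2 and Sod3. All 9 have a row among the 55092 rows of the expression table, and 8 of them passed the filter on low values, Nox1 being the exception. Levels were measured by RNA-Seq in the abdominal aorta of 12 male mice in 4 groups of 3. CFS and CFA were CCN2fl/fl mice, with both Ccn2 alleles floxed and no Cre, given saline (CFS) or angiotensin II (CFA, Ang II). CSS and CSA were CCN2SMCΔ mice, which carry the same floxed alleles and a tamoxifen-activated Cre driven by the Myh11 promoter, given saline (CSS) or Ang II (CSA). Mice of both genotypes received 5 doses of tamoxifen at 8 weeks of age and rested for 2 weeks. Saline or Ang II (500 ng/kg/min) was then delivered by osmotic pump, and tissue was taken on day 7. The study reports that by then most CCN2SMCΔ mice given Ang II had an aneurysm of the infrarenal aorta. In CCN2fl/fl mice given Ang II it reports only a few, which were mild and in the thoracic or suprarenal aorta. Which of the sequenced aortas held an aneurysm is not given in the sources used here. The Cre is directed to smooth muscle cells (SMC), and bulk tissue does not show which cells of the wall kept Ccn2. Only males were studied. The study's text refers to its mice as C57BL/6.

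NADPH oxidases move electrons from NADPH across a membrane onto oxygen. Vascular SMC carry Nox4, which needs only Cyba (p22phox) beside it and releases mostly hydrogen peroxide without a trigger, and Nox1, which makes superoxide when organiser and activator proteins join it. Phagocytes carry Cybb (gp91phox, also called NOX2), which sits with Cyba in the membrane and fires when the cytosolic subunits Ncf1 (p47phox) and Ncf4 (p40phox) and the small GTPase Rac2 are recruited. Superoxide is then converted to hydrogen peroxide by Sod1 in the cytosol, Sod2 in mitochondria and Sod3, which is secreted and bound to the matrix of the vessel wall. The comparisons below ask how the vascular oxidase Nox4 and the phagocyte complex stood against each other with and without SMC Ccn2, under saline and under Ang II.

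Levels are FPKM, fragment counts scaled to transcript length and to the size of the library, so they are per length and can be set side by side between genes. Each mouse gave between 14555499 and 23102755 recovered fragments, and the lowest total was that of CSA mouse 03. This library stood apart from its group. Its root mean square distance over genes, on the log2 scale, was 1.21 from CSA mouse 01 and 1.20 from CSA mouse 02, against 0.51 between those 2 mice and 0.59 to 0.74 between the mice of each other group. Against the mean of CSA mice 01 and 02 its genes also differed by length, with a median log2 difference of -0.57 for the 1618 genes with up to 1000 exonic bases and 0.32 for the 2196 genes with over 8000. The values that rest on it most are therefore given with and without it. The targeted gene Ccn2 stood at 710, 1108 and 480 FPKM in CFS, 436, 640 and 587 in CSS, 1013, 1105 and 564 in CFA and 255, 331 and 399 in CSA aortas. Under saline the genotypes overlapped, and under Ang II they did not, with a log2 fold change of -1.41 (SE 0.34, adjusted p = 0.00622), and -1.56 without CSA mouse 03.

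To show what lies at the starts of these genes, the 250 bases before the RefSeq transcription start (GRCm38.p6) are printed for 4 of the 6 members found in the promoter table, namely Nox4, Cybb, Cyba and the organiser Ncf1, written 5′ to 3′ on the gene's strand. The Nox4 window is chr7:87246399-87246648 on the plus strand, the Cybb window chrX:9469325-9469574, the Cyba window chr8:122432941-122433190 and the Ncf1 window chr5:134229626-134229875, these 3 on the minus strand. None of the 4 holds an annotated exon, and those of Nox4 and Cybb lie inside the longer span that GENCODE M21 gives the gene, while that of Cyba lies inside the annotated gene Gm20388.
Nox4: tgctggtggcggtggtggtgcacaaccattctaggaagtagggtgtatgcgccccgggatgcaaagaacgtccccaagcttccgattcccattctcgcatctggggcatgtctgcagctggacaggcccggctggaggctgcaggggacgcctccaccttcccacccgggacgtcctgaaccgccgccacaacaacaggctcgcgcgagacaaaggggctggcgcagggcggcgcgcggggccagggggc
Cybb: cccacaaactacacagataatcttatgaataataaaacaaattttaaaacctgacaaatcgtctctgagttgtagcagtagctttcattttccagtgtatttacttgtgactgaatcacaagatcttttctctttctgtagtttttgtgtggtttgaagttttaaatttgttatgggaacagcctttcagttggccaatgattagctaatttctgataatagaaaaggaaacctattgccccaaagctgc
Cyba: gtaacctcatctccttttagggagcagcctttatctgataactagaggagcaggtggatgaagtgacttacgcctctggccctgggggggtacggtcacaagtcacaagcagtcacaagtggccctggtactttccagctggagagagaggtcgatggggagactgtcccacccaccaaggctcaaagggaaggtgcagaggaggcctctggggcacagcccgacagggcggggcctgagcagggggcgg
Ncf1: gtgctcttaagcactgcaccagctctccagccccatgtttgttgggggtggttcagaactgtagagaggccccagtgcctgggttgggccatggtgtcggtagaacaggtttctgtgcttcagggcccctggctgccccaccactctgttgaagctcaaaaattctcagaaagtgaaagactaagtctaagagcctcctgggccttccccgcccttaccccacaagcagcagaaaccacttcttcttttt
G and C make up 67.2% of the Nox4 window, 60% of the Cyba window, 54.4% of the Ncf1 window and 34% of the Cybb window. The 6-base core of the PU.1 site, GAGGAA, was searched on both strands from 250 bases before to 50 bases after the start. PU.1, encoded by Spi1, is the factor that sets up the myeloid lineage and drives genes of the phagocyte oxidase. Of the 6 members in the table, 3 held the core (Cybb, Nox1 and Sod2), and 28.3% of all 32851 promoters of that length did. In Cybb the core lies on the other strand just after the start, and a 30-base stretch shows it in capitals.
Cybb: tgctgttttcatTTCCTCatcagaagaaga
In Nox1 the core begins 23 bases before the start, and in Sod2 203 bases before it. No window of the 6 held a CArG box, the site of serum response factor in contractile genes, which 1.63% of all promoters held. Spi1 itself stood between 3.21 and 4.73 FPKM in the 6 saline mice, at 5.18, 10.1 and 3.83 in CFA and at 67.2, 59.8 and 47.99 in CSA aortas. Its log2 fold change of CSA over CFA was 3.28 (SE 0.31, adjusted p = 1.39e-05), and 3.41 without CSA mouse 03.

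Nox4 was the most abundant of the 3 catalytic subunits in CFS, CSS and CFA, and it fell in CSA. The gene (ENSMUSG00000030562) spans chr7:87246096-87398710 and has 8471 exonic bases. It was present at 39.3, 37.9 and 30.1 FPKM in CFS, at 46.2, 37.5 and 46.1 in CSS and at 32.1, 27.6 and 40.1 in CFA. In the CSA mice it was at 4.84, 7.03 and 10.1 FPKM, which still rested on 832 to 1306 fragments a mouse. All 3 CSA mice lay below every other mouse, while the other groups overlapped. The group means were 7.31 ± 2.62 FPKM in CSA and 33.3 ± 6.37 in CFA (SD, n = 3). The fitted log2 fold change, on log2(FPKM + 0.1), was -2.22 in CSA against CFA (SE 0.24, 95% interval -2.75 to -1.68, adjusted p = 4.13e-05), a 4.64-fold fall. Against CSS it was -2.60 (SE 0.24, adjusted p = 9.68e-06). Without CSA mouse 03 the log2 fold change was -2.47 against CFA and -2.86 against CSS. In the fit of all 12 mice, a test of whether the change exceeds 1.5 on the log2 scale gave an adjusted p of 0.0916. In bulk tissue, fewer cells of a type and less RNA per cell cannot be told apart.

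Nox1, the other SMC oxidase, was at the limit of the assay. The gene (ENSMUSG00000031257, chrX:134086421-134221956) was listed at 0 in 11 of the 12 mice and at 0.0326 FPKM, or 2 fragments, in CSS mouse 55. A count of 0 allows a level of up to 3 fragments, which is 0.0416 to 0.0592 FPKM depending on the mouse, for counting error alone. A difference between the groups was therefore not detectable at this depth. About 12.1% of its exonic bases are shared with Cstf2 on the opposite strand, and whether the counting used strand is not given in the sources used here.

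The membrane pair of the phagocyte oxidase rose in CSA. Cybb (ENSMUSG00000015340, chrX:9435252-9487771), the catalytic subunit, stood at 2.29, 2.25 and 2.13 FPKM in CFS and at 3.29, 2.29 and 2.34 in CSS. It reached 3.22, 6.51 and 3.40 in CFA and 48.5, 41.2 and 72.5 in CSA aortas. The lowest CSA mouse was thus several times the highest mouse of any other group, which was CFA mouse 72. The log2 fold change of CSA over CFA was 3.63 (SE 0.28, 95% interval 3.01 to 4.25, adjusted p = 4.46e-06), a 12.4-fold rise, and 3.40 without CSA mouse 03. Against CSS it was 4.28 (SE 0.28, adjusted p = 1.07e-06), and 4.05 without that mouse.

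Cyba (ENSMUSG00000006519, chr8:122424776-122432930) is the partner that Cybb, Nox4 and Nox1 share, and it behaved less evenly. It was at 37.4, 36.1 and 32.9 FPKM in CFS, 41.0, 41.4 and 38.4 in CSS and 40.3, 46.7 and 38.7 in CFA. In CSA mice 01 and 02 it was at 174 and 198 FPKM, and in CSA mouse 03 at 56.5. No CSA mouse overlapped another group, but mouse 03 lay nearer to the CFA mice than to its own group. Cyba has 1039 exonic bases, the fewest of the 9 genes, and its log2 difference of -1.71 between CSA mouse 03 and the mean of the other 2 CSA mice was the lowest of the 8 tested. Sod3, with 3738 exonic bases, came next at -1.56, while Ncf1, with 3663, was at -0.0018. The part of transcript length in these values was not tested. The log2 fold change of CSA over CFA was 1.58 (SE 0.37, adjusted p = 0.00543), just past the limit of 1.5. It became 2.15 without CSA mouse 03 (adjusted p = 6.17e-07), and 1.34 without mouse 01 or 1.24 without mouse 02, both short of the fold limit. Against CSS it was 1.63 (SE 0.37, adjusted p = 0.00377), and 1.39 and 1.297 without mice 01 and 02.

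The cytosolic subunits rose with Cybb. Ncf1 (ENSMUSG00000015950, chr5:134220053-134229625), the organiser that docks the complex on Cyba, lay between 1.86 and 2.38 FPKM in the 6 saline mice, at 2.67, 9.15 and 2.94 in CFA and at 30.6, 34.9 and 32.6 in CSA aortas. The 3 CSA mice were close together, and CFA mouse 72 was again the highest of the rest. The log2 fold change of CSA over CFA was 2.94 (SE 0.36, adjusted p = 9.21e-05), and 3.50 without CFA mouse 72. Of its exonic bases 11.1% are shared with Gtf2ird2 on the opposite strand.

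Ncf4 (ENSMUSG00000071715, chr15:78244801-78262580), which binds a membrane lipid of phagosomes, was at 0.94, 1.14 and 1.55 FPKM in CFS, 1.81, 1.79 and 0.80 in CSS and 1.55, 3.80 and 1.56 in CFA. It was at 36.7, 30.2 and 21.9 in CSA aortas, and these did not overlap any other group. In CSA against CFA its log2 fold change was 3.72 (SE 0.39, adjusted p = 3.17e-05), the largest fitted value of the 8 genes, with an interval of 2.85 to 4.59 that overlaps those of Cybb, Ncf1 and Rac2.

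Rac2 (ENSMUSG00000033220, chr15:78559167-78572783), the Rac GTPase of blood cells, was at 1.95 to 2.72 FPKM in the 6 saline mice, 3.54, 6.12 and 3.24 in CFA and 48.04, 38.7 and 32.3 in CSA aortas. The log2 fold change of CSA over CFA was 3.21 (SE 0.23, adjusted p = 2.66e-06), a 9.29-fold rise. Rac1, the Rac that nearly all cells carry, was at 64.9, 67.97 and 59.0 FPKM in CFA and 69.2, 70.9 and 89.0 in CSA aortas. Its log2 fold change was 0.25 (SE 0.12, adjusted p = 0.137), and 0.13 without CSA mouse 03.

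**Figure D1:**
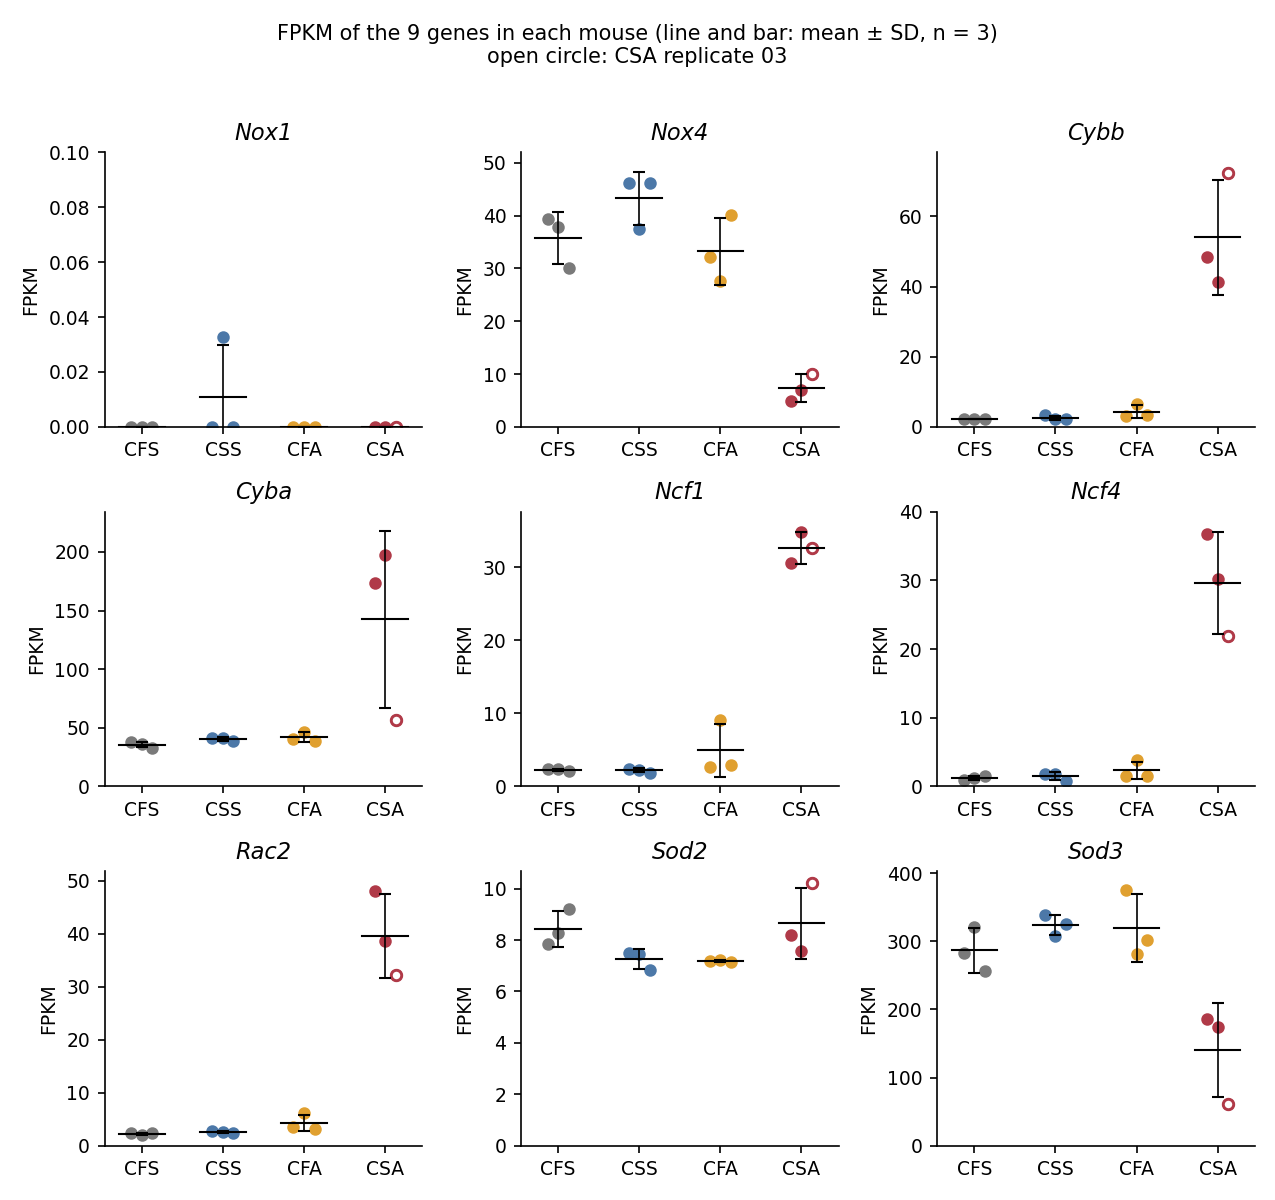
FPKM of each of the 9 genes (vertical axes, each from 0, with its own scale) in the 3 mice of each group, with the group mean and SD (n = 3) as black lines and CSA mouse 03 as an open circle. Nox4 falls to between 4.84 and 10.1 FPKM in CSA, the 5 phagocyte genes rise there, Sod3 is lower there, and Nox1 is at or near 0 throughout.

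Between CSA and CFA, 5 of the 8 tested genes were called higher and 1 lower, at an adjusted p under 0.05 and a log2 fold change beyond 1.5. Of all 14676 genes tested, 8.95% were called higher and 8.27% lower in this comparison, or 1314 and 1214 genes. The balance depends on single CSA mice. Higher and lower calls were 836 and 1327 without CSA mouse 01, 850 and 1328 without mouse 02, and 881 and 1059 without mouse 03. Passing the filter on low values only with the CSA mice favours a higher call, and 702 of the 1206 such genes were called higher. Among the 13470 that passed without the CSA mice, the 8 genes included, 4.54% were called higher and 9.01% lower. The median log2 fold change of the 8 genes was 2.26, and that of all tested genes -0.04. Between CSA and CSS the same 6 genes were called, each in the same direction as above, where 10.9% of all tested genes were called higher and 9.36% lower. Both comparisons use the same 3 CSA mice, so they are not independent. Against CSS the log2 fold changes were 3.85 for Ncf1 (SE 0.36, adjusted p = 9.99e-06), 4.30 for Ncf4 (SE 0.39, adjusted p = 8.43e-06) and 3.89 for Rac2 (SE 0.23, adjusted p = 6.67e-07). Each of the 6 calls in CSA against CFA was also made without CSA mouse 03, with log2 fold changes of 2.94 for Ncf1, 3.92 for Ncf4 and 3.35 for Rac2.

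Neither the genotype under saline nor Ang II in the CCN2fl/fl mice gave a call among the 8 genes. In CSS against CFS the log2 fold changes ran from -0.21 for Sod2 to 0.28 for Nox4, with adjusted p values of 0.927 to 1 by limma and none at an unadjusted p under 0.05. Only 0.0136% of all tested genes were called in that comparison. Cyba and Rac2 were higher in CSS without overlap, as were 11.1% of all tested genes, and Sod2 was lower without overlap, as were 9.31%. The 95% interval for Nox4 was -0.26 to 0.82 and for Cybb -0.40 to 0.84, so changes within those bounds are not excluded. In CFA against CFS, where 0.0273% of tested genes were called, 3 of the 8 had an unadjusted p under 0.05, as did 9.42% of all tested genes. These were Cybb at 0.87 (adjusted p = 0.317), Rac2 at 0.87 (adjusted p = 0.195) and Ncf1 at 0.88 (adjusted p = 0.475). All 3 CFA mice lay above all 3 CFS mice for Cybb, Cyba, Ncf1 and Rac2, and 9.44% of all tested genes were higher without overlap in the same way. Sod2 was lower in CFA without overlap, as were 10.8% of tested genes. CFA mouse 72 had the highest value of its group for all 5 phagocyte genes. Without it the log2 fold changes in CFA against CFS were 0.55 for Cybb, 0.32 for Ncf1 and 0.59 for Rac2. Nox4 was at -0.11 in this comparison (95% interval -0.65 to 0.43, adjusted p = 0.962).

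**Figure D2:**
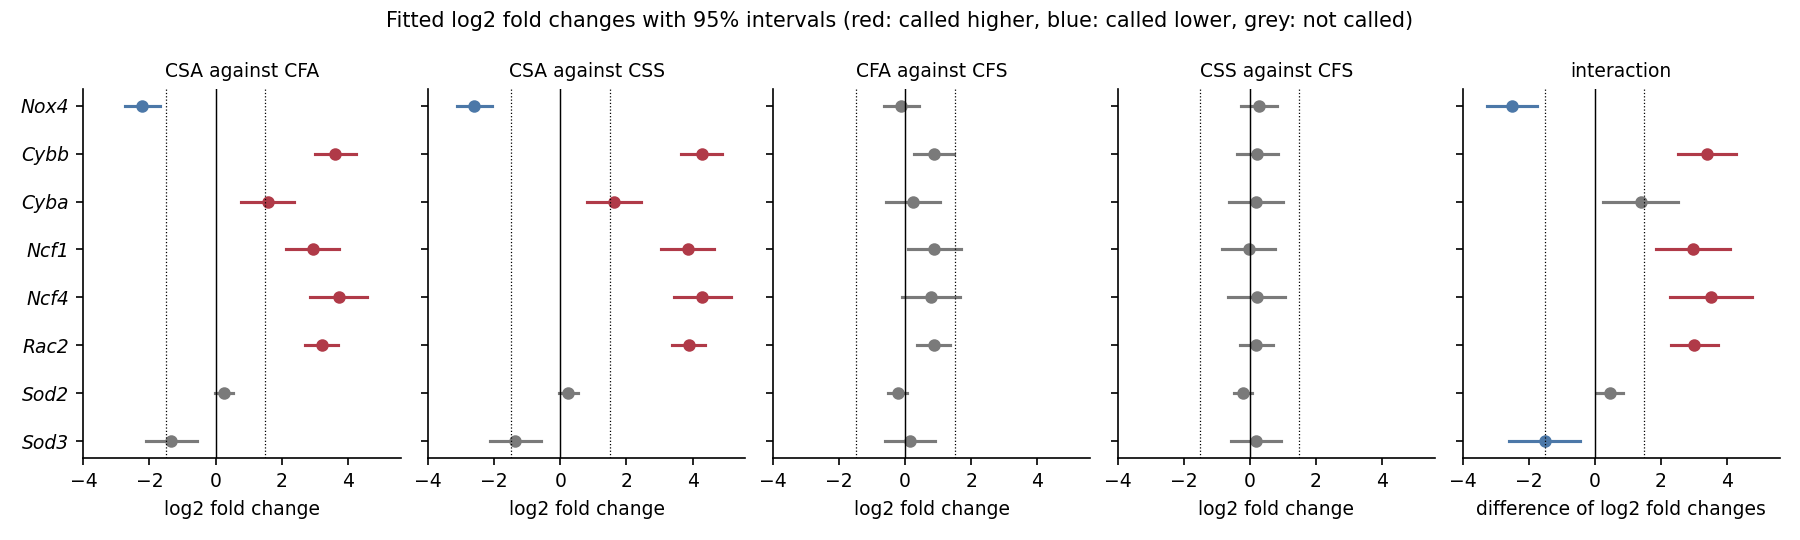
Fitted log2 fold changes (points) with 95% intervals (lines) for the 8 tested genes in each comparison, with dotted lines at -1.5 and 1.5 and colour for genes called higher (red) or lower (blue). In the 2 panels that set CSA against another group, Nox4 lies left of 0 and the 5 phagocyte genes right of it, and in CFA against CFS and CSS against CFS every point is grey.

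The effect of the genotype differed between Ang II and saline for 6 of the 8 genes, by the interaction term of the same fit. Cybb was higher by 3.41 (SE 0.40, adjusted p = 1.93e-04), Rac2 by 3.02 (SE 0.32, adjusted p = 1.20e-04), Ncf4 by 3.52 (SE 0.56, adjusted p = 0.0011) and Ncf1 by 2.98 (SE 0.51, adjusted p = 0.00177), on the log2 scale. Nox4 was lower by a term of -2.49 (SE 0.34, adjusted p = 5.02e-04) and Sod3 by one of -1.52 (SE 0.49, adjusted p = 0.0416), just past both limits. The Sod3 call was made in only 2 of the 12 fits that each left out 1 mouse, and the term was -0.996 without CSA mouse 03. Of all tested genes 7.89% were called higher and 7.31% lower for this term. Cyba had a term of 1.39 (SE 0.52, adjusted p = 0.0722), which was called only when CSA mouse 03 was left out (1.96, adjusted p = 1.34e-05) or libraries were weighted by their spread (1.999). Sod2 had a term of 0.47 (SE 0.18, adjusted p = 0.0814).

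The balance of the 2 catalytic subunits turned over in CSA. The ratio of Nox4 to Cybb FPKM was 17.1, 16.8 and 14.1 in CFS, 14.1, 16.4 and 19.7 in CSS and 9.96, 4.23 and 11.8 in CFA. In the CSA mice it was 0.0998, 0.171 and 0.139. Of the summed FPKM of Nox4, Cybb and Nox1, Nox4 made up 93.4% to 95.2% in the saline mice, 80.9% to 92.2% in CFA and 9.07% to 14.6% in CSA aortas. Nox4 was the more abundant transcript in 9 of 9 mice outside CSA and Cybb in 3 of 3 CSA mice, CSA mouse 03 included. Among the 9 genes in CFS, Sod3 had the highest mean (287 FPKM), Nox4 (35.8) and Cyba (35.5) overlapped in second place, Sod2 followed at 8.44, and Ncf1, Cybb and Rac2 overlapped at about 2.2. In CSA, Cyba (143 FPKM) and Sod3 (141) overlapped at the top, Cybb (54.04), Rac2 (39.7), Ncf1 (32.7) and Ncf4 (29.6) came next with neighbours overlapping, and Sod2 (8.66) and Nox4 (7.31) overlapped below them. In CSA mouse 03 alone Cybb, at 72.5 FPKM, stood above Sod3 (61.1) and Cyba (56.5). Without that mouse the means were 186 FPKM for Cyba and 180.4 for Sod3, and the next was Cybb at 44.8.

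Neither dismutase was called higher in CSA, and Sod3 was lower there. Sod2 (ENSMUSG00000006818, chr17:13006846-13040063), the manganese enzyme of mitochondria, was at 7.84, 8.27 and 9.20 FPKM in CFS, 7.49, 7.47 and 6.82 in CSS and 7.19, 7.23 and 7.14 in CFA. In the CSA mice it was at 8.18, 7.58 and 10.2. The 3 CSA mice lay above the CFA mice, but CSA and CFS overlapped. The log2 fold change of CSA over CFA was 0.25 (SE 0.13, 95% interval -0.03 to 0.53, adjusted p = 0.137), and 0.13 without CSA mouse 03. A rise beyond 0.53 is outside that interval.

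Sod3 (ENSMUSG00000072941, chr5:52363791-52371418), the secreted enzyme, was the most abundant of the 9 in the saline and CFA mice, at 256 to 338 FPKM in the 6 saline mice and 376, 282 and 302 in CFA. In the CSA mice it was at 186, 175 and 61.1 FPKM, and all 3 were below every other mouse. The log2 fold change of CSA over CFA was -1.34 (SE 0.35, adjusted p = 0.00983), and in CSA against CSS -1.36 (SE 0.35, adjusted p = 0.00746). Both pass the adjusted p in the fit of all 12 mice and stop short of the limit of 1.5, and a fit of the CSA and CFA mice alone gave an adjusted p of 0.0638 against CFA. The size rests in part on CSA mouse 03, without which the fall against CFA was -0.82 (adjusted p = 8.27e-04), while without mouse 01 or 02 it was -1.62 or -1.57 and was called. Over the alternative fits the log2 fold change against CSS ran from -1.65 to -0.84. Of the fits that each left out 1 mouse, those without CSA mouse 01 or 02 called the interaction term of Sod3. Sod1, the cytosolic enzyme, was at 24.6, 24.8 and 26.7 FPKM in CSA aortas and 25.7, 30.5 and 32.9 in CFA (log2 fold change -0.22, adjusted p = 0.224). Sod3 made up 84.7% to 91.9% of the summed FPKM of the 3 dismutases in the 9 mice outside CSA, and 85.02%, 84.4% and 62.4% in CSA mice 01, 02 and 03.

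Markers of the cells that carry these genes moved in the same comparison. All 10 smooth muscle markers were called lower in CSA against CFA (median log2 fold change -2.99). Among all genes that passed the filter on low values without the CSA mice, 9.01% were called lower and 4.54% higher. The summed level of the 10 markers fell from 5699 to 8597 FPKM in CFA to 823 to 977 in CSA aortas. All 10 are detected in every group, so the labelled tissue carried its defining markers. Of 10 macrophage and monocyte markers, 9 passed that filter without the CSA mice. Of these, 8 were called higher and none lower (median 2.93), against the same 4.54% and 9.01%. The sum of all 10 was 206 to 273 FPKM in the saline mice, 290 to 596 in CFA and 2053 to 2161 in CSA aortas. CFA mouse 72 had the sum of 596. Only 3 of 10 neutrophil markers passed that filter without the CSA mice, and these 3 were called higher, against the same 4.54%. The sum of the 10 was 11.3 to 28.1 FPKM in CFA and 526 to 575 in CSA aortas. No marker of either list was at 0 in all 12 mice. The summed level of 8 fibroblast markers was 2289 to 2528 FPKM in CFA and 3631 to 4343 in CSA aortas, without overlap. Of these markers 2 were higher and 3 lower at an adjusted p under 0.05, none past the fold limit. At that adjusted p alone, 2864 of all 14676 tested genes were higher and 3114 lower. The part of these cells in the values of Nox4, Sod3 and the phagocyte genes was not tested.

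Set against those sums, the members differed from each other. Nox4 was 3.57 to 4.40 FPKM per 1000 FPKM of smooth muscle markers in CFS, 4.74 to 5.18 in CSS, 3.20 to 7.04 in CFA and 5.29 to 12.2 in CSA aortas. Both saline groups lay below the CSA mice, and of the CFA mice only mouse 74 overlapped them. Sod3 was 32.8 to 53.0 per 1000 in CFA and 74.3 to 203 in CSA aortas, without overlap and with CSA mouse 03 lowest. Cybb was 10.3 to 11.7 FPKM per 1000 FPKM of macrophage markers in CFA and 19.0 to 35.3 in CSA aortas, without overlap. Ncf1 was 8.25 to 10.1 in the saline mice, 8.51 to 15.4 in CFA and 14.3 to 16.1 in CSA aortas, where only CFA mouse 72 overlapped the CSA mice. Ncf4 (4.93 to 6.38 and 10.7 to 17.2) and Rac2 (10.3 to 11.3 and 15.7 to 22.5) did not. Cyba, which cells other than phagocytes also carry, was 78.3 to 133 per 1000 in CFA and 27.5 to 91.5 in CSA aortas. Neutrophil markers, whose sum was also higher in CSA than in CFA aortas, are not part of the macrophage sum. These ratios describe the mice and depend on the markers listed, and they carry no test.

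**Figure D3:**
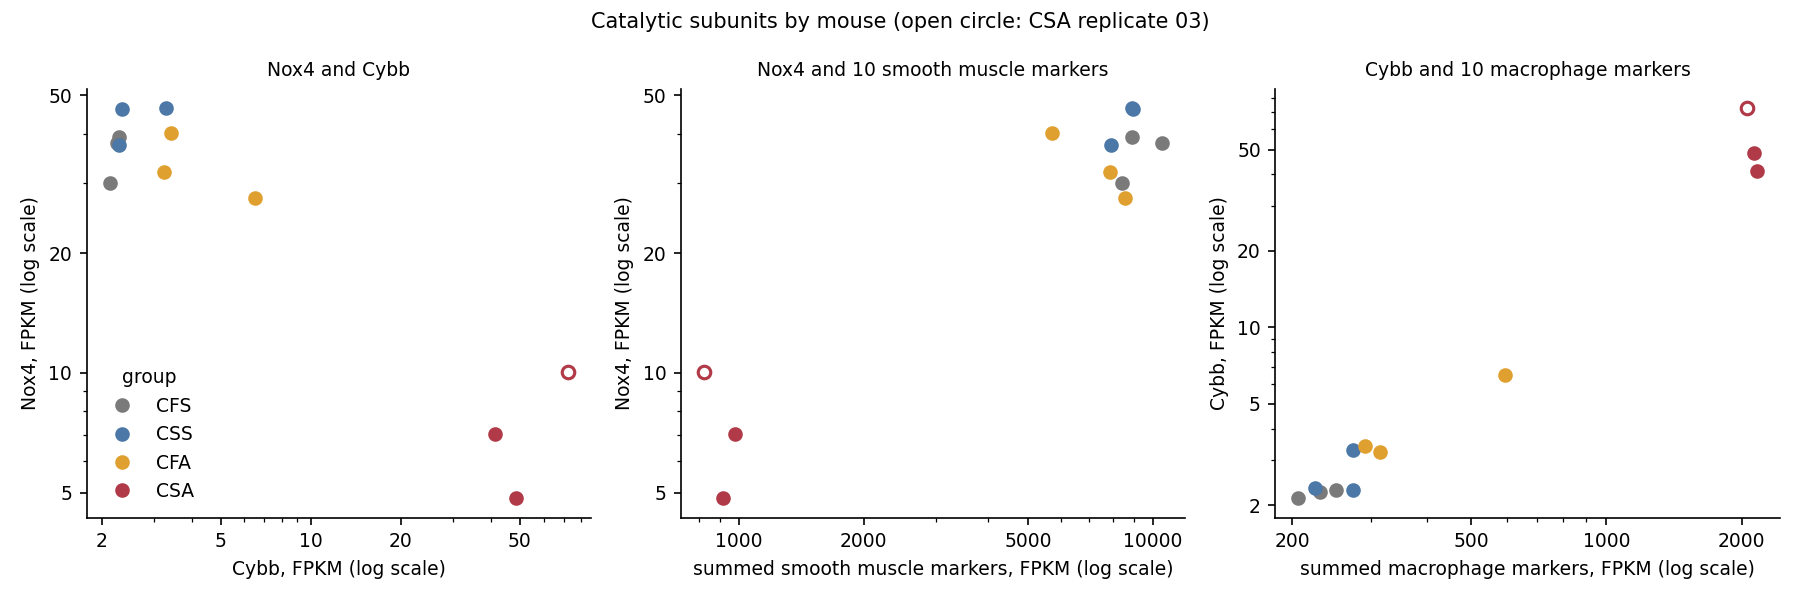
Each point is a mouse, with both axes in FPKM on a log scale and CSA mouse 03 as an open circle: Nox4 against Cybb (left), Nox4 against the sum of 10 smooth muscle markers (middle) and Cybb against the sum of 10 macrophage markers (right). The CSA mice lie apart from the other 9 in each panel, and CFA mouse 72, at 6.51 FPKM of Cybb, is the highest of the rest in the right panel.

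Of 21 other NADPH oxidase subunits and regulators, 14 were tested, and 3 were called higher and 1 lower in CSA against CFA (median log2 fold change 0.74), against 4.54% higher and 9.01% lower among all genes that passed the filter without the CSA mice, as these 14 did. Vav1, a Rac activator of blood cells, rose by 3.81 on the log2 scale (SE 0.34, adjusted p = 1.09e-05), from 1.24 to 3.16 FPKM in CFA to 22.3 to 30.8 in CSA aortas, and by 3.96 without CSA mouse 03. Prex1, a Rac activator of neutrophils, rose by 2.05 (SE 0.24, adjusted p = 6.52e-05), and by 2.31 without that mouse. Arhgdib, which holds small GTPases inactive in blood cells, rose by 1.73 (SE 0.23, adjusted p = 1.40e-04), but by 1.45 without CSA mouse 03, short of the fold limit. The proton channel Hvcn1, named after its values were seen, was at 1.07 in the fit of all mice and at 1.57, and called, without that mouse. The one called lower was Sh3pxd2a at -1.57 (SE 0.20, adjusted p = 9.80e-05), an adaptor related to Ncf1 that organises podosomes. That call was lost without CSA mouse 03 (-1.36), with scaling to library totals (-1.49) and with libraries weighted by their spread (-1.42). In the test of whether a change exceeds 1.5, Vav1 passed (adjusted p = 0.00114) and the other 3 did not, with Prex1 at an adjusted p of 0.235. The Nox1 partner Noxo1 stayed under 0.89 FPKM in every mouse and was not tested.

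Of 29 other antioxidant enzymes and regulators, all tested, 1 was called higher and 1 lower (median 0.35), against the same 4.54% and 9.01%. Hmox1, which breaks down heme, was at 7.18, 17.2 and 7.89 FPKM in CFA and 46.6, 48.8 and 39.6 in CSA aortas, a log2 fold change of 2.16 (SE 0.28, adjusted p = 1.16e-04), and 2.25 without CSA mouse 03. Nqo1, a quinone reductase, went the other way, from 8.28, 6.92 and 9.14 to 2.51, 1.55 and 1.85 FPKM, a log2 fold change of -2.01 (SE 0.17, adjusted p = 8.77e-06), and -1.98 without that mouse. Both are textbook targets of Nfe2l2 (NRF2). In the test against the limit of 1.5, neither passed, with adjusted p values of 0.198 for Hmox1 and 0.0941 for Nqo1. The secreted glutathione peroxidase Gpx3 had a log2 fold change of 1.297 (SE 0.43, adjusted p = 0.0317, and 0.0573 without CSA mouse 03), glutathione reductase, Gsr, one of 0.91 (SE 0.11, adjusted p = 9.54e-05) and catalase, Cat, one of -0.58 (SE 0.20, adjusted p = 0.0359), none past the fold limit.

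Of 10 other oxidant-producing enzymes, 7 were tested. Both genes called higher, Alox15 and Nos2, passed the filter on low values only with the CSA mice. That favours a higher call, so they are given by their levels. Of the 5 others, none was called higher and 2 were called lower, against the same 9.01% lower. The lipoxygenase Alox15 was at 0.60, 2.30 and 0.58 FPKM in CFA and 8.71, 4.53 and 5.16 in CSA aortas. The inducible nitric oxide synthase Nos2 was at 0.37, 0.65 and 0.67 and at 4.29, 2.83 and 1.997. The endothelial synthase Nos3 was at 23.4, 13.5 and 31.7 and at 6.69, 6.49 and 1.55 (log2 fold change -2.37, SE 0.71, adjusted p = 0.0207), a call lost without CSA mouse 03 (-1.69), CFA mouse 71 (-2.31) or CFA mouse 74 (-2.09). The monoamine oxidase Maob had a log2 fold change of -1.53 (SE 0.28, adjusted p = 0.00129), short of the fold limit without CSA mouse 01 (-1.32) or 02 (-1.40) or CFA mouse 74 (-1.32), with a pseudocount of 1 (-1.35) and with scaling to library totals (-1.45). No gene of this list passed the test against the limit of 1.5. Of 8 endothelial markers, 3 were called lower and 1 higher, against 9.01% and 4.54% of all genes that passed without the CSA mice. The part of these markers in the Nos3 value was not tested.

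**Figure D4:**
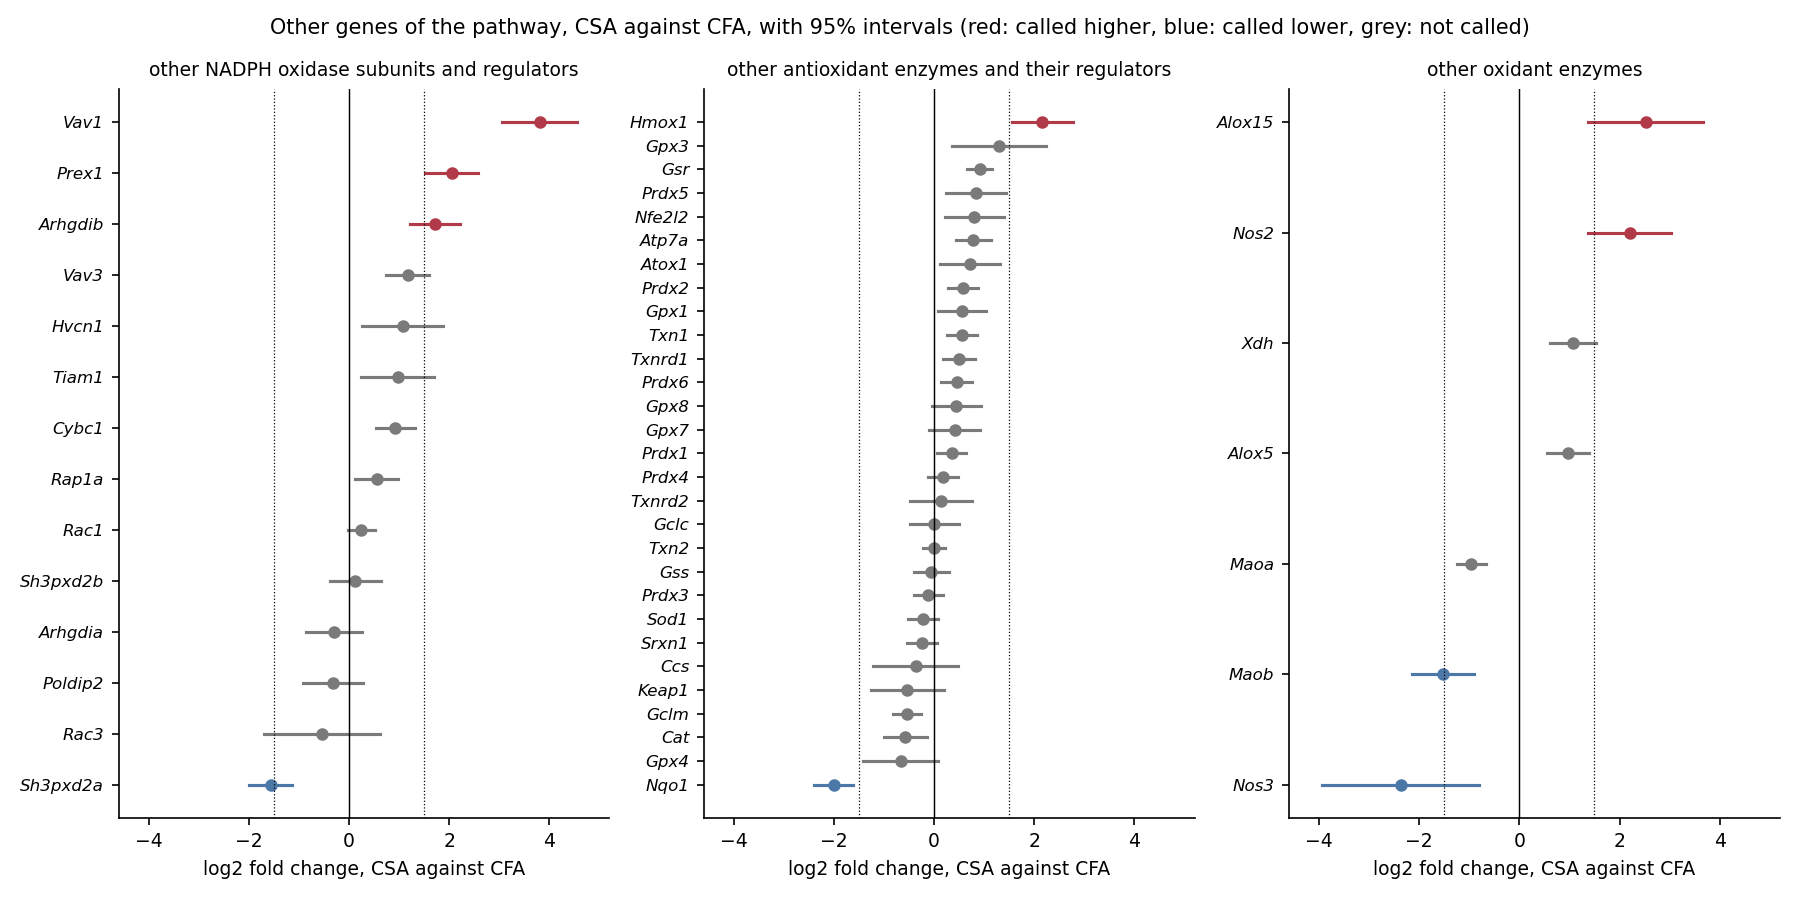
Log2 fold changes in CSA against CFA (points) with 95% intervals (lines) for the tested genes of the 3 lists, ordered by value, with dotted lines at -1.5 and 1.5. Vav1 at 3.81 and Hmox1 at 2.16 head the first 2 lists, and most antioxidant genes lie between the dotted lines. Alox15 and Nos2, at the top of the third list, passed the filter on low values only with the CSA mice.

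The genes whose levels followed these members most closely over the 12 mice were sought among 4686 tested genes with a mean of at least 10 FPKM, by Pearson's r of log2(FPKM + 0.1), as a description. All these values rest largely on the difference between the CSA mice and the rest. They include CSA mouse 03, which was far below the other CSA mice for Sod3, and were not computed without it. Nox4 was closest to Cped1 (r = 0.994), Bmpr1a (0.989) and Tmtc1 (0.989). Cped1 had a mean of 67.7 FPKM in CFA and 13.4 in CSA, and Bmpr1a, a type I receptor for bone morphogenetic proteins, 37.9 and 16.4. Cybb was closest to C3ar1 (0.998), the receptor of the complement fragment C3a, Clec4a3 (0.997), a lectin of myeloid cells, and Epsti1 (0.997). C3ar1 had a mean of 3.49 FPKM in CFA and 60.4 in CSA. These 3 genes reached a mean of 10 FPKM only with the CSA mice, so the limit on the mean itself favoured genes high in CSA. Sod3 was closest to Tbxa2r (0.992), the thromboxane receptor of SMC and platelets, Wdr6 (0.986) and Ptms (0.986), and Tbxa2r went from a mean of 18.3 to 4.81.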

How the data were processed

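RNA was taken from the abdominal aorta of 12 male mice, 3 in each of 4 groups, as separate mice, and poly-A libraries were read as 150-base pairs. Per the submitters' processing notes, mm10, HISAT2 2.0.5, StringTie 1.3.3b and featureCounts 1.5.0-p3 were used. The authors deposited FPKM values (fragments scaled to gene length and library size), 1 per gene and mouse, and how the totals behind them were scaled is not given in the sources used here. Every sample column of the table was used (0 left out). Symbols, exon lengths and positions came from GENCODE M21 (GRCm38) and promoters from RefSeq (GRCm38.p6). Whole fragments were recovered from the steps of FPKM times exon length, within a tolerance of 0.05 fragments.

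Genes with at least 1 FPKM in at least 3 libraries (14676) were fitted in limma 3.58.1 (R 4.3.3) on log2(FPKM + 0.1), each group having its own coefficient, with all 12 libraries in the fit and empirical Bayes variances (trend and robust). The interaction is CSA minus CFA less CSS minus CFS. P values were Benjamini-Hochberg adjusted over all tested genes within each of 5 contrasts, and calls needed both an adjusted p under 0.05 and a log2 fold change beyond 1.5. Fold changes understate those of low genes. The fit was tested on simulated data. The genes named are the 9 members, the targeted Ccn2, Spi1, in each of 3 pathway lists the 4 with the largest change in CSA against CFA plus Rac1, Sod1 and Cat, and the 3 genes most like Nox4, Cybb and Sod3. Noxo1 and Hvcn1 were named after their values were seen. Of the 10 marker lists, the T cell and B cell genes (7 and 2 tested) passed the filter only with the CSA mice. Their calls in CSA against CFA are therefore not counted. The skeletal muscle list had no call. Of the adipocyte and erythrocyte genes, 2 of 6 and 5 of 5 were called lower, against 9.01% of genes that passed without the CSA mice. The members and lists were chosen with earlier results of these data known. One gene of the oxidase list is not reported here and was left out of its counts. Intervals are 95% intervals from limma, and limits at a count of 0 cover counting error only. Alternatives were another pseudocount, filters, scalings, variance settings and leaving out each mouse.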

Additional observations from a re-analysis of the deposited data

Results flagged for a closer look

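The difference that Ccn2 deletion made under Ang II was set against the difference it made under saline in the interaction term of the limma fit, and 6 of the 8 tested members were called for a difference between the 2 treatments, against 7.89% of all tested genes called higher and 7.31% lower. On the log2 scale the term was 3.41 for Cybb (adjusted p = 1.93e-04), 3.02 for Rac2 (adjusted p = 1.20e-04), 3.52 for Ncf4 (adjusted p = 0.0011) and 2.98 for Ncf1 (adjusted p = 0.00177). It was -2.49 for Nox4 (adjusted p = 5.02e-04) and -1.52 for Sod3 (adjusted p = 0.0416). Without CSA mouse 03 the terms were 3.18, 3.16, 3.72 and 2.98 for Cybb, Rac2, Ncf4 and Ncf1, -2.75 for Nox4 and -0.996 for Sod3. The Sod3 call was absent from 10 of the 12 fits that left out a mouse, and without CSA mouse 03 Cyba (1.96) was called in its place.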

How the results depend on the processing

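No paired analysis was possible because the replicate numbers of the 4 groups are not shared. The count of members called in CSA against CFA was 6 in each of the 12 fits that left out a mouse (without CSA mouse 01 or 02, Sod3 was called lower in place of Cyba called higher) and 4 to 7 over all settings tried, 5 to 7 in CSA against CSS, and 0 under every setting in the 2 other group comparisons. Testing against the fold limit itself (limma's treat) gave 2 members, both higher, for the interaction, and for Nox4 in CSA against CFA a log2 fold change of -2.22 with an adjusted p of 0.0916. Ncf1 in CSS against CFS, near 0 in the main fit, became 0.022 with scaling to library totals and lay between -0.10 and 0.069 when a mouse was left out. Nox4 in CFA against CFS likewise lay between -0.26 and 0.015, and neither was called in any of these fits. In CSA against CFA, over the 20 alternatives that changed neither the call rule nor the null, Nox4 ran from -2.47 to -1.95 (adjusted p 5.16e-07 to 0.00236) and Cybb from 3.37 to 3.95 (adjusted p 1.11e-07 to 8.30e-04). Over all genes, the count called in CSA against CFA was 2528 in the main fit, 1601 with a pseudocount of 1, 1095 with a mean of at least 5 FPKM, 953 by treat and 5978 with no fold limit. In CSA against CSS it was 2977, and 1918, 1272, 1348 and 6781 under the same 4 settings. For the interaction it was 2231, and 1078 with a mean of at least 5 FPKM, 380 by treat and 3877 with no fold limit. In CFA against CFS it was 4, 147 with array weights, 243 with unadjusted p, and 0 to 124 when a mouse was left out, the most without CFA mouse 74. In CSS against CFS it was 2, 35 with array weights, 132 with unadjusted p, and 0 to 16 when a mouse was left out, the most without CSA mouse 03. With 3 mice a group, and Ncf4 at 35 to 68 fragments in the saline mice, small changes in the saline and CFA comparisons were not detectable.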
